A study of Mus musculus with 70 samples.

Results

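The last round of the kidney route was examined, from passage 5 (P5) to passage 6 (P6) of kidney primary tumor (KPT) cells. All arrays labelled as kidney tumours of these passages on the first set of slides were taken, which gave 5 KPT P5 replicates and 5 KPT P6 replicates, or 10 of the 70 arrays of the series. RENCA is a mouse renal adenocarcinoma line that arose in BALB/c mice, and the study used cells that carry GFP. At each round the cells were injected beneath the capsule of the left kidney of immunocompetent female BALB/c mice, and cancer cells recovered from the resulting tumours were injected into the next mice. The labels name no drug for either group, so both groups share the line, the GFP marker, the route and the host strain and differ by 1 round in the kidney. The labels call the source a primary tumour and name a tissue homogeniser, whereas the study's methods describe sub-lines cultured from tumours until cells without GFP were not detected. The labels number the replicates but do not say whether each came from its own mouse, so p-values measure the spread between these samples. RNA was labelled with Cy5 and hybridised to single-colour Agilent mouse arrays, and levels are log2 signal relative to the array, with 0 at the 75th percentile of probes detected on every array.

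Tumours hold cancer cells together with macrophages, fibroblasts and vessels, and a line grown out of a tumour can keep some of these until culture removes them. Macrophages are known by the first complement component (C1qa, C1qb and C1qc), lysozyme and Fc receptor genes, and fibroblasts by fibrillar collagens and periostin. Epithelial tumour cells themselves can make complement proteins and neutrophil-attracting chemokines such as Cxcl1 and Cxcl5, which are induced by inflammatory signals through NF-kB in many cell types.

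Promoters of 3 genes that the results turn on are shown, from RefSeq (GRCm38.p6), each 300 bases long and written 5′ to 3′ on the gene's own strand. Cxcl1 had the largest named rise from P5 to P6, and its capitals mark matches on either strand to an NF-kB type motif, spelled GGG, then any pair of bases, then TTTCC. C1qb and C1qc are neighbours on chromosome 4, were high together in the same replicates, and their capitals mark GAGGAA, the core bound by ETS factors such as PU.1, on either strand.
Cxcl1, chr5:90890995-90891294, plus strand: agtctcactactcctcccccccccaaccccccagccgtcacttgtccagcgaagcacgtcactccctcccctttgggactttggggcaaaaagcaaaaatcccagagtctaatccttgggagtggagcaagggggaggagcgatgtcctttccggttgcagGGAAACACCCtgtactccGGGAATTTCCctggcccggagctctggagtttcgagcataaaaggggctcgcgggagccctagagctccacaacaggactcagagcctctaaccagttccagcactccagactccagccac
C1qb, chr4:136886151-136886450, minus strand: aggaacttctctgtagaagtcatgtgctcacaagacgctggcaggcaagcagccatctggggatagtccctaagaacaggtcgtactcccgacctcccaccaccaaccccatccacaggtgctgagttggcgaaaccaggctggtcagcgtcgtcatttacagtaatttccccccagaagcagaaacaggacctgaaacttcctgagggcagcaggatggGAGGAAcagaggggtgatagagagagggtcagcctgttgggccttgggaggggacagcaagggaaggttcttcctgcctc
C1qc, chr4:136892865-136893164, minus strand: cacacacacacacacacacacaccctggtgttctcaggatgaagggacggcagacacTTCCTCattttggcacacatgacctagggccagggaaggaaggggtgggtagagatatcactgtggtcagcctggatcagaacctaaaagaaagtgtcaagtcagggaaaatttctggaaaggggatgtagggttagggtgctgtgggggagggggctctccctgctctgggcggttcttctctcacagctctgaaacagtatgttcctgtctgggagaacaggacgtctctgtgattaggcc
The Cxcl1 promoter held 2 matches to the NF-kB type motif, and 1.63% of the 32851 promoters of the same length in the table held at least 1. The C3 promoter held 0 matches to it, and Cxcl5 was not matched in the table. Of the 6 named rises that could be matched 1 held it, Cxcl1. Of the 4 matched acute-phase and complement genes that passed in the step 0 held it. GAGGAA occurred in 28.28% of all these promoters. It occurred in 3 of the 5 genes that could be matched among the 9 macrophage markers called for spread further on.

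A pair of replicates stood apart before any comparison, namely KPT P5 replicates 1 and 2. The 11 fixed macrophage markers were all well above background on both of these arrays, against 5 to 6 of them on the other 8 arrays. Their summed signal, in multiples of the array's 75th percentile, was 7.36 and 9.92 in KPT P5 replicates 1 and 2, 3.56 to 3.99 in KPT P5 replicates 3 to 5 and 2.92 to 4.14 at P6. The 8 fibroblast markers summed to 25.3 and 6.25 in KPT P5 replicates 1 and 2, 0.427 to 0.58 in replicates 3 to 5 and 0.42 to 1.15 at P6. Endothelial markers summed to 0.325 to 0.899 at P5 and 0.238 to 0.472 at P6, with 6 of 8, Pecam1 and Cdh5 among them, never above background. Of the RENCA and renal epithelial markers Krt8, Krt18, Pax8 and Cdh16 were tested, and Pax2, Cdh1 and Epcam were not above background on any array. The hemoglobin and most tubule markers were not above background either. Fewer cells of a type and less RNA per cell cannot be told apart in such samples. The counts of calls and the distances are therefore also given without KPT P5 replicates 1 and 2, a choice made after seeing the data. The arrays detected 28.0% to 35.1% of probes and the 75th percentile of all probes lay between 199 and 535 intensity units, higher at P6 on all 5 slides.

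The P5 replicates varied more among themselves than the P6 replicates. The root mean square distance of a replicate from its group mean, over 20059 tested probes, was 0.747, 0.687, 0.506, 0.51 and 0.505 log2 units in KPT P5 replicates 1 to 5. It was 0.333, 0.302, 0.248, 0.446 and 0.293 in KPT P6 replicates 1 to 5. All P6 distances lay below all P5 distances. The mean distance was 0.591 ± 0.117 (SD, n = 5) at P5 and 0.324 ± 0.0744 (SD, n = 5) at P6, a ratio of 1.82 (exact permutation test over 252 assignments, 2-sided p = 0.00794, the smallest it can give). The 5 distances of a group are taken from the same group mean, so outlying replicates raise those of the others too. The permutation test treats the distances as separate values and does not allow for this. The difference of 0.266 was 0.127 over probes well above background on all arrays (exact permutation p = 0.0317) and 0.157 with no filter on dim probes. The median SD per probe was 0.314 at P5 and 0.238 at P6, and the P5 SD was the larger for 13994 probes, or 69.8%. For scale, repeat hybridisation of the RNA of KPT P6 replicates 1, 2 and 4 gave a median SD of 0.165. The root mean square difference between the 2 arrays of an RNA, after removing the mean set difference per probe, averaged 0.2575. It is taken over 2 arrays and is not the same measure as the distances above.

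**Figure D1:**
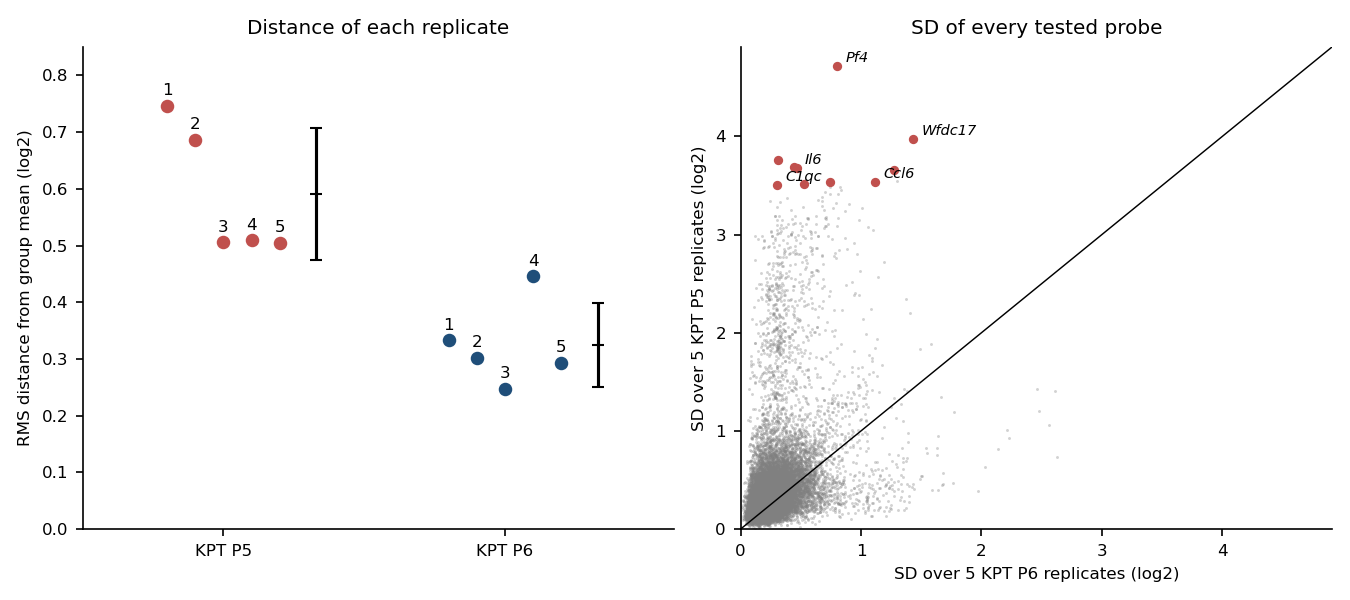
Spread of the KPT P5 and P6 replicates. Left, root mean square distance of each numbered replicate from its group mean in log2 units, with the group mean and SD as black bars, where the 5 P6 points lie below the 5 P5 points. Right, SD over the 5 P5 replicates against SD over the 5 P6 replicates for each tested probe, with the line of equality and the 10 genes of largest P5 SD in red, of which 5 are named.

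This difference rested on KPT P5 replicates 1 and 2. Without them the distances were 0.253, 0.332 and 0.322 in replicates 3 to 5, inside the P6 range of 0.248 to 0.446, and the mean difference turned to -0.0224 (exact permutation test, 2-sided p = 0.786, 56 assignments). The median SD was then 0.212 at P5 against 0.238 at P6. Omitting replicate 1 alone or replicate 2 alone left differences of 0.184 and 0.205, each with an exact permutation p of 0.0635.

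Tested probe by probe, 624 of 20059 probes varied more at P5 (3.11% of those tested) and 6 varied more at P6 (0.0299%), by limma on the absolute deviations at an adjusted p of 0.01. The 624 probes included 520 gene symbols. Some of the 624 were detected only on KPT P5 replicates 1 and 2 and entered the test through them. Over probes well above background on all arrays 107 of 14898 passed, and all 107 varied more at P5. In 567 of the 624, or 90.9%, KPT P5 replicates 1 and 2 were the 2 highest of the 10 arrays, and in 51 they were the 2 lowest. Over all tested probes, 16.2% had these 2 replicates highest. On simulated data this test recovered probes with a shifted pair of arrays, but none with only a wider normal spread. The share of 90.9% was therefore partly set by the test and is given as a description. With deviations from the group median 0 probes passed in limma, with 446 at an unadjusted p under 0.05. Without either replicate 1 or replicate 2, 0 probes passed in limma, with 2282 and 2350 at an unadjusted p under 0.05, and without both 0 passed, with 1358 at that level.

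The genes of largest SD at P5 were genes of myeloid and of stromal cells. Pf4, platelet factor 4, was at 1.07 and 0.59 in KPT P5 replicates 1 and 2, at -6.82, -8.12 and -8.19 in replicates 3 to 5, and between -8.95 and -7.05 at P6. Its SD of 4.71 at P5 compared with 0.80 at P6. Ccl6, a myeloid chemokine, was at 3.33 and 3.23 in replicates 1 and 2, between -3.23 and -3.09 in replicates 3 to 5, and between -6.05 and -3.37 at P6. C1qc was at -2.56 and -2.17 in these 2 replicates, and between -9.07 and -8.23 in replicates 3 to 5, not well above background. Wfdc17, Arg1 (arginase), Clec4n (a C-type lectin of myeloid cells) and Il6 had P5 SDs of 3.98, 3.76, 3.66 and 3.68. Actg2 (smooth muscle actin) and Rarres2 (chemerin) had SDs of 3.53 and 3.51. In each of these genes replicates 1 and 2 were the 2 highest arrays and did not overlap the other 8.

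Among the fixed lists, 9 of 11 macrophage markers were called with larger P5 spread, where 3.11% of all probes were. Adgre1, C1qa, C1qb, C1qc and Mrc1 were well above background only on KPT P5 replicates 1 and 2 and so entered the test through the arrays that made their spread large, and they are given as a description. Of the 6 markers detected on more arrays, 4 were called, Cd14, Lyz2, Tyrobp and Fcer1g, while Csf1r and Cd68 were not. Lyz2, lysozyme of macrophages and neutrophils, was at 0.07 and 0.96 in KPT P5 replicates 1 and 2, between -5.48 and -4.83 in replicates 3 to 5 and between -6.34 and -4.87 at P6. The pan-leukocyte genes Cd52, Cd53 and Laptm5 also passed, 3 of 6. All 6 were well above background on KPT P5 replicates 1 and 2, against 2 to 3 of them on each other array. These calls may therefore also rest on detection in the pair and are given as a description. Collagen and matrix genes passed in 9 of 38, among them Col1a1, Col4a2, Fn1, Fbn1, Timp1, Timp3, Mmp14 and Loxl2. This list had 39 and 34 genes well above background on the pair, against 21 to 34 on each other array. Its calls may therefore share that limit. Col1a1, a chain of type I collagen, was at 2.80 and 0.72 in replicates 1 and 2, between -4.94 and -4.06 in replicates 3 to 5 and between -5.00 and -2.71 at P6. Among actin and contractile genes 7 of 28 passed, and Tagln, a smooth muscle and myofibroblast protein, was at 4.21 and 3.63 in replicates 1 and 2 against -2.13 to -1.23 in replicates 3 to 5.

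Among chemokines 5 of 17 passed, Ccl6, Ccl7, Ccl9, Cxcl14 and Pf4, and among acute-phase and complement genes 3 of 19, Saa3, Socs3 and Il6. The chemokine list had 16 genes well above background on each of KPT P5 replicates 1 and 2, against 10 to 16 on each other array. The acute-phase and complement list had 18 on each of the pair, against 13 to 18. These calls may therefore also rest on detection in the pair and are given as a description. Of 13 genes of the KPT list that the study chose on these samples, which is therefore not independent, and of which 1 further gene was not analysed here, Adam8, Btg3, Cyba, Fkbp10 and Rcn3 passed. Ribosomal protein, respiratory chain and MHC class I genes had 0 calls (at an unadjusted level the whole table held 2993 probes under 0.05). Their median SDs were 0.298, 0.203 and 0.281 at P5 and 0.218, 0.179 and 0.226 at P6. The P5 SD was the larger in 69 of 78, 22 of 38 and 8 of 12 of them.

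**Figure D2:**
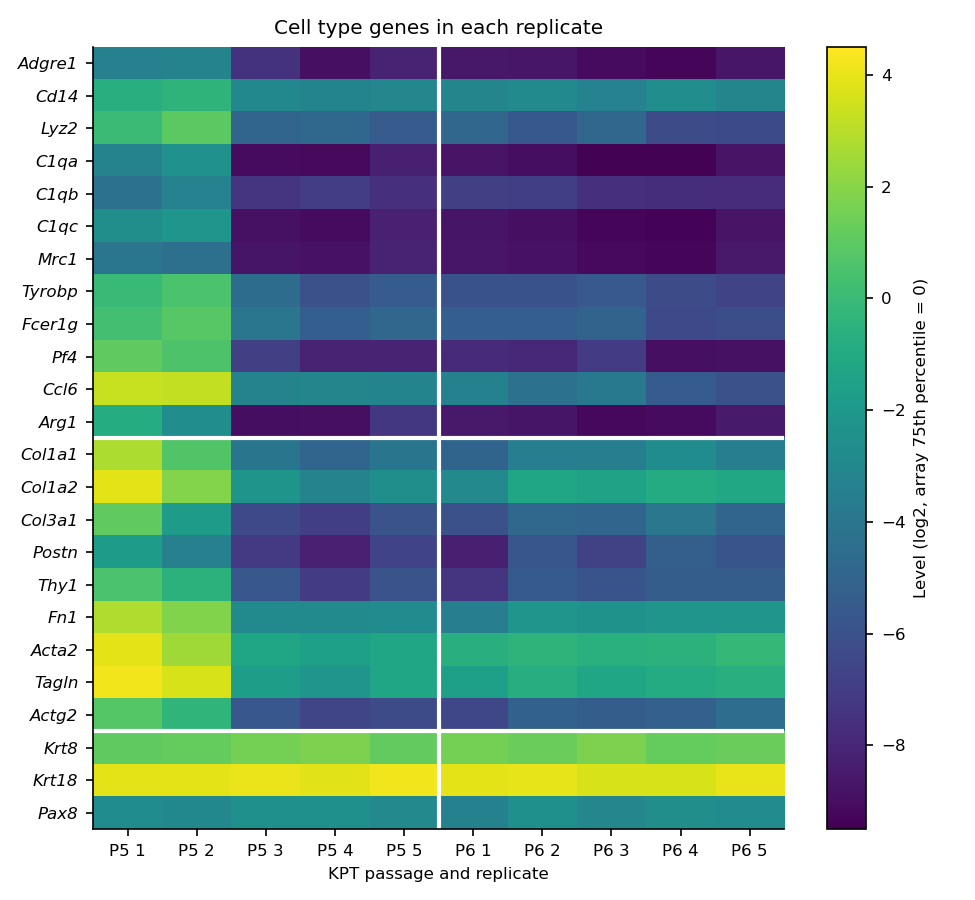
Levels of cell type genes in each KPT replicate, as colour on a log2 scale with 0 at the array's 75th percentile. Rows are macrophage genes, then fibroblast, matrix and contractile genes, then the RENCA epithelial genes Krt8, Krt18 and Pax8; the first 2 columns, P5 replicates 1 and 2, are brighter than the other 8 in the upper blocks but not in the lowest.

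The genes with the strongest difference of spread among those detected on every array included Gng11, Ptgds, Rgs10, Evl, Syngr1, Cyba, Apoe, Cfp and Ssr4, each with an adjusted p of 0.00132 in limma. Cyba (a subunit of the phagocyte oxidase), Apoe (apolipoprotein E) and Cfp (properdin) are made by macrophages. Cyba was at 1.94 and 1.90 in KPT P5 replicates 1 and 2, between -4.04 and -3.12 in replicates 3 to 5 and between -4.31 and -3.58 at P6, an SD ratio of 9.94. Gng11, a G protein subunit, was at -1.07 and -1.14 in the first pair, between -5.88 and -5.50 in replicates 3 to 5 and between -5.91 and -5.50 at P6, an SD ratio of 16.2. Ptgds, prostaglandin D synthase, ran the other way, at -5.95 and -5.83 in replicates 1 and 2 and between -2.96 and -2.77 in replicates 3 to 5, while P6 lay between, at -4.14 to -3.76. Without replicates 1 and 2 Ptgds was lower at P6 by limma (log2 change -1.11, adjusted p = 0.00194).

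Among genes detected on every array, the strongest spread in the other direction was in Rc3h2, Tmem191c, 1700003F12Rik, Rasl2-9 and BC051226. Their P6 over P5 SD ratios were 4.67, 5.43, 2.75, 3.45 and 2.38. None of the 5 passed in limma (adjusted p = 0.0427, 0.0965, 0.105, 0.125 and 0.128), and the 6 probes that did pass were not among these genes. Rc3h2, an RNA-binding ubiquitin ligase, was between -4.68 and -4.49 at P5, and at -3.58 and -3.84 in KPT P6 replicates 4 and 5 against -4.58 to -4.40 in replicates 1 to 3.

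High macrophage genes in some replicates were not confined to P5 on this route. C1qa was at -4.41, -5.22 and -9.13 in the 3 KPT P4 replicates. Pf4 was at -0.59, -0.87 and -9.16 in the same samples, and between -3.57 and -0.31 in the 5 KPT P1 replicates. Each slide of the step held 1 P5 and 1 P6 replicate, and P6 replicates 1 and 2, which shared the slides of P5 replicates 1 and 2, had C1qa at -8.75 and -8.98. The mean distance from the group mean, over the same probes and scaled for the number of arrays, was 0.53 at KPT P1 (n = 5) and 0.531 at KPT P4 (n = 3), without a test. In the tail vein lung metastasis cells described further on it was 0.506 at P5 (n = 6) and 0.3335 at P6 (n = 4). A larger mean distance at P5 than at P6 was thus also seen on that route.

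In the step itself, 135 of 20059 probes changed between P5 and P6 by limma at an adjusted p of 0.01, or 0.673% of those tested. With the slide, which held 1 replicate of each group, as a block 0 probes passed in limma, 5109 had an unadjusted p under 0.05, and the 20 genes in the plot of step levels had adjusted p-values from 0.0173 to 0.0363. At P6 128 were higher (0.638%) and 7 were lower (0.0349%). Of the 135, 46 were not well above background on any P5 array and so passed the filter through P6 alone. Over probes well above background on all arrays 66 passed, 62 of them higher. They covered 70 gene symbols among the rises and 6 among the falls, and 54 called probes had no symbol. None of the 135 overlapped between the groups, as was so for 1405 of all tested probes. The median change of all tested probes was 0.03 on the log2 scale. Without KPT P5 replicates 1 and 2, 250 probes were higher (1.25%) and 35 lower (0.174%), and 103 of the 135 remained among them. Of the named genes that passed with all 10 arrays, Col4a3 and Pdk4 did not pass without the pair (limma, adjusted p = 0.0102 and 0.0106).

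Cxcl1, a chemokine that attracts neutrophils, had the largest rise among probes with a gene symbol. It was at -4.68, -4.50, -6.04, -6.34 and -5.00 in KPT P5 replicates 1 to 5 and at -2.28, -1.53, -3.10, -2.68 and -1.01 in KPT P6 replicates 1 to 5. All P6 replicates were above all P5 replicates, and the log2 change was 3.19 ± 0.463 (SE), or 9.15-fold (limma, adjusted p = 0.00707). Cxcl5 lay between -7.36 and -6.41 at P5, not well above background on any array, and between -5.06 and -3.40 at P6. It was at least 5.86-fold higher at P6 (adjusted p = 0.00225, limma). Within slides Cxcl1 rose by 2.40 to 3.99 and Cxcl5 by 1.95 to 3.01.

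Several genes of complement and the acute phase also rose. C3, the central component of the cascade, was at -2.63, -3.65, -4.26, -4.01 and -4.16 in KPT P5 replicates 1 to 5 and at -1.81, -1.54, -1.74, -1.72 and -1.92 at P6. The groups did not overlap and replicate 1 was the highest at P5. The log2 change was 1.99 ± 0.274 (SE), or 3.98-fold (limma, adjusted p = 0.0055), and 2.39 without KPT P5 replicates 1 and 2 (adjusted p = 4.5e-05). C5ar2, a receptor for the C5a fragment, was between -5.68 and -4.52 at P5 and between -3.34 and -2.73 at P6, 4.13-fold higher. Both of its probes passed, as did both of Cp, ceruloplasmin, a copper-carrying acute-phase protein. The brighter Cp probe was at -1.19, -0.82, -1.16, -0.75 and -0.90 at P5 and at 0.61, 0.64, 0.72, 0.60 and 0.14 at P6, 2.84-fold higher. C1s1 and C1ra, the proteases of the C1 complex and neighbours on chromosome 6, were 2.67-fold and 2.25-fold higher. C1s2, a near-identical copy of C1s1, rose to the same degree, and its signal and that of C1s1 may be shared.

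In counts, 5 of 19 tested acute-phase and complement genes rose, where 0.638% of all probes did, among them C3, Cp, C1s1 and C1ra, and 0 fell; 11 of the 19 had a positive change, and the median was 0.78 against 0.03 for all probes. Of 17 chemokine and cytokine genes 2 rose (Cxcl1 and Cxcl5) and 0 fell, with a median of 0.19. Nlrc5, a transactivator of MHC class I genes, rose 2.44-fold as the single member of 12 in the MHC class I list that passed, and the list's median change was 0.58. Of all 500 tested members of the pathway lists 9 passed, and 0 passed with the slide as a block or with the RNA index described further on as a covariate, by limma. H2-K1 and H2-D1, the classical class I heavy chains, changed by 0.68 and 0.59 without passing (limma, adjusted p = 0.0234 and 0.0586).

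**Figure D3:**
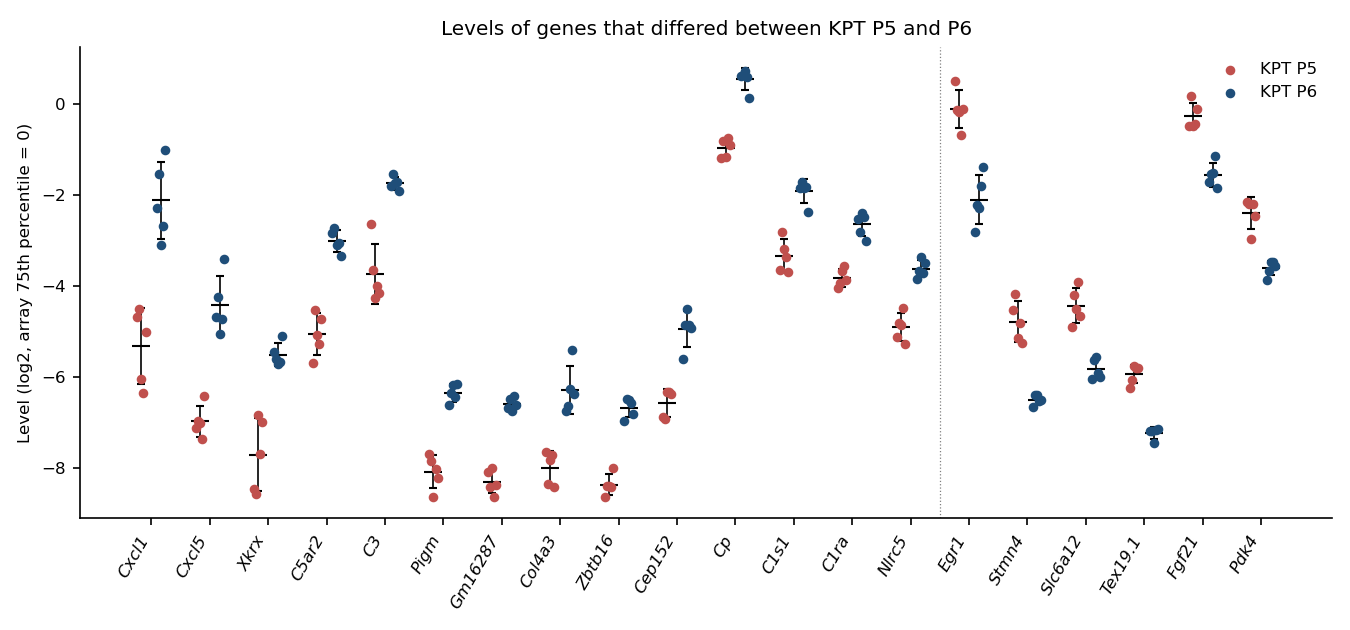
Levels of named genes in each KPT P5 and P6 replicate on a log2 scale, with the group mean and SD as black bars. Left of the dotted line are genes that rose and right of it the 6 that fell, and in each gene the 5 points of the 2 groups do not overlap.

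The remaining named rises were mostly dim at P5. Pigm (a glycolipid anchor enzyme), Gm16287, Col4a3 (a basement membrane collagen) and Zbtb16 (a transcriptional repressor) were not well above background on any P5 array. They were at least 3.32, 3.13, 3.15 and 2.93 times as high at P6. Xkrx rose 4.57-fold and Cep152, a centriole protein, 3.08-fold, with Cep152 between -6.93 and -6.33 at P5 and between -5.60 and -4.50 at P6.

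The 6 genes that fell included an immediate-early factor and metabolic genes. Egr1, an immediate-early transcription factor, was at 0.49, -0.13, -0.19, -0.68 and -0.12 in KPT P5 replicates 1 to 5 and at -2.82, -2.22, -2.29, -1.81 and -1.38 at P6. The groups did not overlap, and Egr1 fell by 1.98 on the log2 scale (SE 0.277, limma, adjusted p = 0.00611), or 3.94-fold. Fgf21, a stress-induced hormone of metabolism, lay between -0.49 and 0.17 at P5 and between -1.85 and -1.15 at P6, 2.44-fold lower. Pdk4, an inhibitor of pyruvate dehydrogenase, lay between -2.98 and -2.15 at P5 and between -3.86 and -3.47 at P6, 2.31-fold lower. Stmn4 (a stathmin), Slc6a12 (a betaine and GABA transporter) and Tex19.1 (a germ cell gene) fell by 1.71, 1.39 and 1.29 on the log2 scale. On the P6 arrays Stmn4 was well above background on 3 and Tex19.1 on 1, so their falls are against partly undetected levels.

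Falls that did not pass were next in order of the test. Lrfn3, Gm11545, Nupr1 and H2-Q1 had log2 changes of -2.02, -0.98, -0.63 and -1.15 (limma, adjusted p = 0.0103, 0.0104, 0.0106 and 0.0156). Nupr1, a stress-induced chromatin protein, was between 1.76 and 1.93 at P5 and between 1.07 and 1.36 at P6. Of 23 immediate-early genes Egr1 alone passed, with a list median of -0.47, and Jun and Fos had changes of -0.57 and 0.49 (limma, adjusted p = 0.0475 and 0.103).

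The other 27 lists with a tested member had 0 members past the threshold. Ribosomal protein genes (78 tested) had a median change of -0.22, with Rpl35 at -0.16, and respiratory chain genes (38 tested) one of -0.16, with Atp5b at 0.09. Cell cycle genes (33 tested) had a median of 0.36, and their brightest members Mcm6 and Birc5 changed by 0.11 and 0.24. Interferon-induced genes (26 tested) had a median of 0.26, with Isg15 at 0.22 and Bst2 at 0.60. Hypoxia and glycolysis genes (26 tested) had a median of -0.17, with Aldoa and Ldha both at -0.28. Cholesterol synthesis (23 tested) and ER stress genes (27 tested) had medians of -0.17 and -0.15, with Fdps at -0.51 and Trib3 at -0.38. Keratin and cadherin genes (25 tested) had a median of -0.14, and Krt18 and Vim changed by -0.16 and 0.17. Collagen and matrix genes (38 tested) had a median of -0.68, which was 0.67 without KPT P5 replicates 1 and 2. Contractile genes (28 tested) had -0.09 and then 0.35, fibroblast markers (7 tested) -0.93 and then 0.70, and macrophage markers (11 tested) -2.62 and then -0.28. The 13 genes used of the study's KPT list had a median of -0.22 and then 0.36, with Il34 at 0.31 and Plau at 0.02. The brightest matrix, contractile, macrophage and fibroblast members, Sparc, Actb, Cd68 and Col1a2, changed by -0.59, -0.22, 0.15 and -1.06 with all 10 arrays. Kidney transcription factors (8 tested), surface markers (10 tested), VHL-related genes (6 tested) and annexins with S100 proteins (18 tested) had medians between -0.06 and 0.02, with Eya1 at 0.08, Ly6a at 0.08, Hif1a at -0.10 and S100a6 at -0.12. Long mRNAs (19 tested) had a median of 0.73, with Ahnak at 0.82 and Dync1h1 at 0.56, and histone genes (11 tested) one of -0.28, with H2ac20 at -0.23.

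Without KPT P5 replicates 1 and 2 more chemokine and complement genes passed. The pair was left out after seeing the data, and for genes high in it this lowers the P5 mean and spread. The calls and p-values without the pair are therefore a description. Where 1.25% of all probes then rose, 7 of 17 chemokines did, Ccl2, Ccl7, Ccl8, Cxcl1, Cxcl2, Cxcl3 and Cxcl5, and 7 of 19 acute-phase and complement genes, among them Lcn2, Cp, C3, C1s1, C1ra and C4b. Ccl2, a monocyte attractant, was at 0.32 and 1.70 in KPT P5 replicates 1 and 2, at -1.27, -1.73 and -1.19 in replicates 3 to 5 and between 0.22 and 1.23 at P6. Its log2 change was 1.15 with all 10 arrays (limma, adjusted p = 0.262) and 2.11 without the pair (adjusted p = 0.00123). Lcn2, lipocalin 2, was at 0.23 and 0.71 in the pair, between -1.19 and -0.97 in replicates 3 to 5 and between 0.26 and 1.40 at P6. In both genes the pair lay near or above the P6 range and the other P5 replicates lay below it, whereas Cxcl1 and Cxcl5 were low in all 5 P5 replicates. Col6a1, Col6a3 and Tnc (tenascin C) of the matrix list, Krt7, Grhl2, Ifi27l2a, Itgb1, Anxa8, Dnajc12 and Aqp1 were the further list members that passed without the pair.

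**Figure D4:**
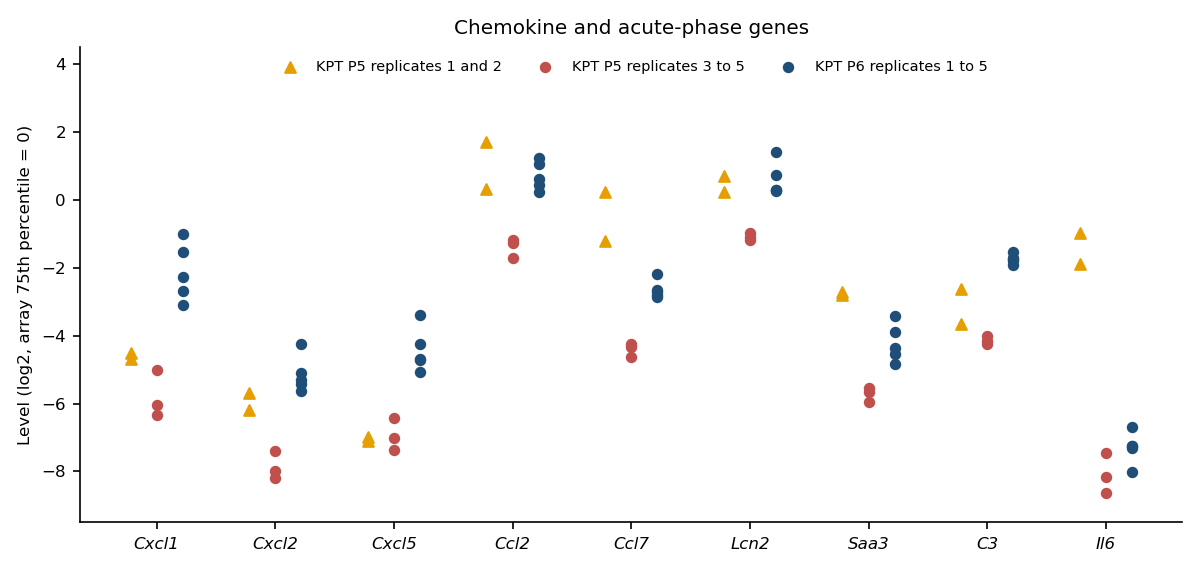
Levels of chemokine and acute-phase genes on a log2 scale in KPT P5 replicates 1 and 2 (triangles), KPT P5 replicates 3 to 5 and KPT P6 replicates 1 to 5, 1 point per array. Cxcl1 and Cxcl5 were low in all P5 replicates, while Ccl2, Ccl7, Lcn2 and Il6 were high in replicates 1 and 2.

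Set against the unpassaged cells and KPT P4, the rising genes Cxcl1, Cp and C3 were lower at P5. This is described without a test because the genes were chosen on the P5 values, and KPT P2 and P3 are not given here. Cxcl1 was between -1.592 and -1.495 in the unpassaged cells (P0), between -0.999 and 1.18 at KPT P1, and between -1.16 and 1.11 at KPT P4, above every P5 replicate. Cp was between 1.47 and 1.62 at P0 and between -0.43 and 1.02 at KPT P4. C3 was between 0.67 and 0.74 at P0 and between -1.05 and -0.22 at KPT P4. Egr1, which fell from P5 to P6, was between -3.86 and -3.59 at P0 and between -2.63 and -0.59 at KPT P4.

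Technical measures moved with the step. The index of long mRNAs over ribosomal protein mRNAs (16 and 78 probes) was higher at P6 by 0.86 on the log2 scale, on 4 of 5 slides, with SDs of 0.56 at P5 and 0.574 at P6 (exact permutation test, 2-sided p = 0.0635). With this index as a covariate 5 probes passed in limma, all 5 among the 135, for C5ar2 (both probes), Cp, Npm2 and Wdyhv1, and 2179 had an unadjusted p under 0.05. With the slide as a block limma called 513 at an adjusted p of 0.05, and all 135 had an unadjusted p under 0.05. The part of the index and of the macrophage and fibroblast genes in the step was not tested beyond these fits.

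The same step was measured in tail vein lung metastasis (T-LM) cells, with 6 P5 and 4 P6 arrays. The T-LM P5 arrays were dimmer, with a 75th percentile of all probes of 128 to 354 intensity units, against 315 to 590 at P6. They detected 25.3% to 32.3% of probes, against 31.6% to 37.3% at P6. The part of this in the T-LM step and in the route difference was not tested. In T-LM 3902 of 21284 probes changed (18.3%), and the difference between the routes passed for 400 probes (1.88%), 93 with the higher change in KPT. With the 75th percentile taken over all probes 328 passed, 159 with the higher change in KPT, and without KPT P5 replicates 1 and 2 403 passed. Of the 135 KPT step probes 9 were among the 400. Cxcl1 changed by -0.27 in T-LM, and the difference of 3.47 passed (limma, adjusted p = 0.00194). Zbtb16 and Pdk4 also differed, by 1.93 and -2.47 (adjusted p = 0.00297 and 0.000121 in limma), and Pdk4 rose by 1.26 in T-LM. Complement C1s1 differed by 1.54 (limma, adjusted p = 0.00696), since it changed by -0.12 in T-LM, whereas for Cp and Nlrc5 a difference did not pass (adjusted p = 0.174 and 0.673 in limma). Without KPT P5 replicates 1 and 2 the difference for Cxcl1 was 3.95 (limma, adjusted p = 0.000936) and that for C3, which had not passed at 1.51 (adjusted p = 0.0218), was 1.91 (adjusted p = 0.00101).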

How the data were processed

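Total RNA of KPT P5 and P6 was hybridised to Agilent arrays and scanned by the authors. The deposited scanner files hold intensity values per spot, background-subtracted and detrended by the scanner software, and the deposited series table holds log2 values after the authors' normalization. Per the file headers each slide held 1 KPT P5 and 1 KPT P6 replicate of the same number.

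Control spots and outlier-flagged spots were left out, log2 spots were averaged into 55681 probes, and each array was centred on its 75th percentile over 12233 probes well above background on all 70 arrays, since under 50% of probes were detected. A tested probe was well above background on at least 2 arrays; 63 tested values were missing after flagging. Of the probes, 28026 matched 1 of 21154 RefSeq symbols, and 27655 are unnamed here. The brightest probe stands for a gene.

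Tests used limma 3.58.1 (R 4.3.3), 2-sided, with a Benjamini-Hochberg adjusted p of 0.01 as the threshold, on levels (step, route difference) or on absolute deviations scaled for group size (spread). Distances were compared with an exact permutation test. On simulated data the step test recovered most changed probes; the spread test recovered probes with a shifted pair of arrays but none whose values had only a wider normal spread, so 0 calls of spread do not show equal spread. An "at least" fold sets the mean of the bright group against the dim group, whose values below the lowest detected signal of their array are raised to it. For Cxcl5 and Pigm no value was raised, so their bound is the fitted fold.

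Named genes were the 10 largest rises and falls that passed, filled up by the test statistic, the 10 and 5 genes of strongest spread in either direction and the 10 of largest P5 SD, and the 5 largest route differences each way. Members, lists and tests were chosen with earlier results of these data known. Of 33 fixed gene lists, older symbols were matched through RefSeq synonyms. Alternatives covered scaling, background, filter, covariate, block and omitted arrays. Precision is limited by the number of arrays. Some genes that the rule or the lists hold are not reported here. Repeat arrays of KPT P6 served for the technical spread and for the repeat levels of Syt10 and Tox4 given under other observations.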

Additional observations from a re-analysis of the deposited data

Results flagged for a closer look

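Of 94 groups of gene levels tested for a sample far from the others, 3 had one, and chance alone flags about 1 in 20 groups. Tex19.1 was at -7.44 in KPT P6 replicate 3, below the other P6 replicates. 1700003F12Rik was at -5.23 in KPT P5 replicate 4 and BC051226 at -3.13 in KPT P5 replicate 2, each above the other P5 replicates.

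The change from P5 to P6 differed between the kidney and the tail vein route by a test of the difference in limma. It was higher in KPT by 4.12 on the log2 scale for Nos2 (inducible nitric oxide synthase), by 3.47 for Cxcl1, by 2.98 for 4631405J19Rik, by 2.95 for Sprr2g (a small proline-rich protein), by 2.95 for Gm9112 and by 1.93 for Zbtb16. It was lower in KPT for Cd52 (a leukocyte surface protein) with a difference of -8.4, for Sftpc (surfactant protein C of alveolar cells) with -5.59, for Plbd1 with -4.94, for H2-Eb1 (an MHC class II chain) with -4.82, for Mmp13 (a collagenase) with -4.63, for Pdk4 with -2.47 and for Gm11545 with -1.7. Sftpc, Sprr2g and Gm9112 were not well above background on any of the 10 KPT arrays, so their differences give no level in KPT. Their T-LM changes were 5.24, -2.47 and -1.56. The remainder of each difference, largest for Gm9112, came from undetected KPT levels. Without KPT P5 replicates 1 and 2, Cd52, 4631405J19Rik and Gm11545 no longer passed, at -6.13, 2.61 and -1.53 (limma, adjusted p = 0.0134, 0.0115 and 0.0167).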

How the results depend on the processing

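The count of 135 probes in the step was 86 with the 75th percentile over all probes, 84 with quantile normalization, 77 with normexp, 88 with the authors' value table, 60 with no filter, 66 with probes well above background on all arrays, 5 with the index as a covariate and 0 with the replicate block, where 5109 had an unadjusted p under 0.05. Same-numbered replicates shared a slide, so the block is part of the design. Their deviations correlated over 0.1 in 3 of 5 pairs, which cannot decide whether the block is needed. The main fit had no block because the study's methods state no covariate. Leaving out 1 array gave 26 to 101, with 76, 71, 55 and 49 without KPT P5 replicates 1, 3, 4 and 5 and 59, 36, 26, 42 and 46 without KPT P6 replicates 1 to 5. Without KPT P5 replicates 1 and 2, chosen after seeing the data, it was 285, and 22 with the replicate block as well. Calls in the gene lists went to 0 with the replicate block, 0 with the index and 25 without the pair. The difference in distance, 0.266 with all arrays, was 0.127 over probes well above background on all arrays, 0.157 with no filter, -0.0224 without the pair and 0.184 to 0.309 without 1 array. The count of 630 probes by spread was 107 with probes well above background on all arrays, 0 with the index (3420 unadjusted), 0 with deviations from the group median (446 unadjusted), 0 without the pair and 0 to 1002 without 1 array, with 0 without KPT P5 replicate 1 or 2, 1002 and 953 without KPT P5 replicates 4 and 5, and 383, 300, 307, 341 and 320 without KPT P6 replicates 1 to 5. The T-LM step had 2495 calls with probes well above background on all arrays and 2542 with the index, and 2637 to 4284 without 1 array. The route difference had 209 with that filter and 189 with no filter, and 206 to 924 without 1 array, the highest without T-LM P5 replicate 1 and the lowest without T-LM P6 replicate 3. For the 16 named step genes that passed, 195 results under other settings kept the call and 132 lost it, and for the 4 that had not passed 70 stayed so and 11 gained the call, with no change of sign. With the 75th percentile over all probes, 1291 of 3770 T-LM calls were higher at P6, against 2981 of 3902. The cause of these changes was not tested.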

Other observations

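Among genes chosen after their values were seen, KPT P6 replicate 4 had Syt10, a synaptotagmin, at -4.38 against 0.85 to 1.70 in the other P6 replicates, and the repeat hybridisation of its RNA gave 0.24. Tox4 was at -4.81 in the same array and at -1.82 in the repeat.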
